A study of Rattus norvegicus with 8 samples.

Results

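Serpina6, Hsd11b1, Hsd17b2, Nr3c1, Fkbp5, Tsc22d3 and Sgk1 carry, convert, bind or respond to steroid hormones in the liver. They are 7 of the 18166 genes that the array of this rat study measured with a probe set naming a single gene. Each has 1 such probe set (17824035, 17687717, 17733868, 17725895, 17757188, 17879047 and 17627802, in that order). Serpina6 and Hsd17b2 were chosen because of what they did after partial hepatectomy (PHx) and with the diet. Their PHx and diet values are therefore a description, with no test. The other 5 were chosen for their part in glucocorticoid handling and response, and all 7 are at or above the level minimum used for testing, a mean log2 level of 5. The arrays, 8 in all and made by Affymetrix, were hybridised with liver RNA from male rats of the outbred Sprague-Dawley stock. Rats had been fed ethanol chronically, or a carbohydrate diet in amounts matched to an ethanol-fed partner (pair-fed). They were untreated, or were given AM21, an antisense oligonucleotide to the microRNA miR-21 that carries locked nucleic acid bases, by intraperitoneal injection in saline at 7.5 mg/kg, 72 h before PHx and again right after it. The surgery removed 70% of the liver, and tissue from that moment (0 h) was compared with regenerating tissue of 24 h later. The 4 combinations of diet and treatment are 4 pools of RNA, from 4 rats each (untreated) or 3 rats each (AM21), and the same rats gave the 0 h and the 24 h array of a pool. The spread between single animals was not measured, age is not given in the sources used here, and no sham-operated rats and no rats given a control oligonucleotide were analysed here. Changes from 0 h to 24 h cannot be told apart from effects of surgery, feeding or time of day, and AM21 cannot be told apart from cohort, since the identifiers of the treated and untreated rats lie in separate ranges.

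Glucocorticoids, in the rat mainly corticosterone, travel in plasma bound to corticosteroid-binding globulin, the product of Serpina6, which is secreted by hepatocytes. Inside the cell the enzyme encoded by Hsd11b1 regenerates the active hormone from its inert keto form, and Hsd11b2 encodes the enzyme that does the reverse. The glucocorticoid receptor, encoded by Nr3c1, waits in the cytosol in a complex with heat shock proteins and immunophilins, and on binding hormone moves to the nucleus and switches genes on or off. Fkbp5, Tsc22d3 and Sgk1 are textbook genes that the bound receptor induces: the first encodes an immunophilin that lowers the hormone affinity of the receptor, the next a leucine zipper protein (GILZ) that mediates anti-inflammatory effects, and the last a kinase that acts on ion transport and cell survival. Hsd17b2 stands apart, because its enzyme oxidises estradiol and testosterone rather than glucocorticoids. Corticosterone was not measured in these samples as given here, so the genes are described without a hormone level.

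RefSeq starts on the GRCr8 assembly were at hand for Nr3c1, Fkbp5, Tsc22d3 and Sgk1, 4 of the 7 genes, with 9 starts in all. The 250 bases before each start were searched on both strands for the half-site of the glucocorticoid response element (TGTTCT), for its full palindrome (AGAACA, any 3 bases, TGTTCT), for the E-box CACGTG of clock factors and for the half-site GTTAAT of the hepatocyte factor HNF1. The palindrome contains the half-site, so those 2 searches overlap. None of the 9 windows held TGTTCT, which 17.5% of all 33469 such windows hold. CACGTG is in 5.59% of all windows, GTTAAT in 6.45% and the palindrome in 0.012%. A single match was found, to GTTAAT on the strand opposite to Tsc22d3, 111 to 106 bases before one of its 3 starts. It is in capitals below. That window is shown with the one of Fkbp5, the 2 being classic targets of the receptor that differed in their PHx response. The matches are a description of letters only. The miR-21 strand is shown because AM21 is directed against it, with its seed (bases 2 to 8) in capitals. The labels do not say which arm AM21 matches, and the 5p arm is the one usually meant by miR-21.
Tsc22d3, chrX:109066390-109066639, minus strand, GRCr8: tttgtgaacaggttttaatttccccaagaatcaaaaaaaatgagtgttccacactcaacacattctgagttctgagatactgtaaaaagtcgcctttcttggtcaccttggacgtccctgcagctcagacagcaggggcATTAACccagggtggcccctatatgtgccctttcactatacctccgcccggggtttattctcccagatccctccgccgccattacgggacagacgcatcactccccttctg
Fkbp5, chr20:6543556-6543805, minus strand, GRCr8: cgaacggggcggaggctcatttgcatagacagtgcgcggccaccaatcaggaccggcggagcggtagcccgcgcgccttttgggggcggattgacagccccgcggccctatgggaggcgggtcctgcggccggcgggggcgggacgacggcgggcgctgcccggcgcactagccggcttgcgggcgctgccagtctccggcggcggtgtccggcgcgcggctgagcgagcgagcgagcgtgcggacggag
rno-miR-21-5p: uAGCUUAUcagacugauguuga

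The values are on a log2 scale, so a difference of 1 is a doubling. Differences are given ± SE from a limma fit over all 8690 genes at or above the level minimum, with p-values adjusted over all of them by the Benjamini-Hochberg method and called below 0.05. Between 24 h and 0 h, 28.1% of the tested genes were called, 15.3% higher and 12.8% lower. Between the diets 0.46% were called, 0.38% higher and 0.0806% lower in ethanol-fed livers (15.4% at an unadjusted p under 0.05), and between AM21 and untreated livers 0%. The diet and AM21 fits counted all arrays as independent, although the 0 h and 24 h arrays of a pool came from the same rats. Errors, p-values and intervals given below for diet and for AM21 therefore describe that fit only. The tissue label fits its markers: the summed level of the 5 hepatocyte markers with a probe set lay between 14.13 and 14.17 on a log2 scale on all 8 arrays. Markers of other cells moved with time or diet. All 8 genes of S phase and mitosis and both tested neutrophil markers (S100a8 and S100a9) rose after PHx. Ccnb1, Cdk1, S100a8 and S100a9 had mean 0 h levels under the level minimum (4.68, 4.50, 4.53 and 4.90). Their means over all arrays reached it only through the 24 h arrays, so their rises are a description. The neutrophil markers Csf3r, Cd177 and Itgam were below the level minimum and not tested, with mean changes of 0.25, -0.04 and 0.06. Of 3 tested genes of the lymphocyte list (Cd4, Ccl5 and Ptprc) 2 fell. The list went from a summed level of 9.0 to 9.33 at 0 h to 8.46 to 8.63 at 24 h. The T cell genes Cd3e, Cd3d and Cd8a and the B cell genes Ms4a1 and Cd79b were below the level minimum, so they were not tested. The tested genes of this list therefore do not establish a change in lymphocytes. Of 5 tested sinusoidal endothelial markers 3 fell (Ehd3, Oit3 and Clec4g, list median -0.60), and their summed level went from 9.82 to 10.20 at 0 h to 9.41 to 10.03 at 24 h. Of 6 tested stellate and fibroblast markers 3 fell (Lrat, Reln and Col3a1) and 1 rose (Pdgfrb), with a list median of -0.29. Of 8 macrophage markers 3 fell after PHx (Adgre1, Clec4f and Csf1r) and 1 rose (Marco). By diet, macrophage markers were summed at 10.42 to 10.74 in pair-fed and 11.02 to 11.22 in ethanol-fed livers. The part these cells have in the results below was not tested, and in whole tissue fewer cells of a type cannot be told apart from less RNA per cell.

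**Figure D1:**
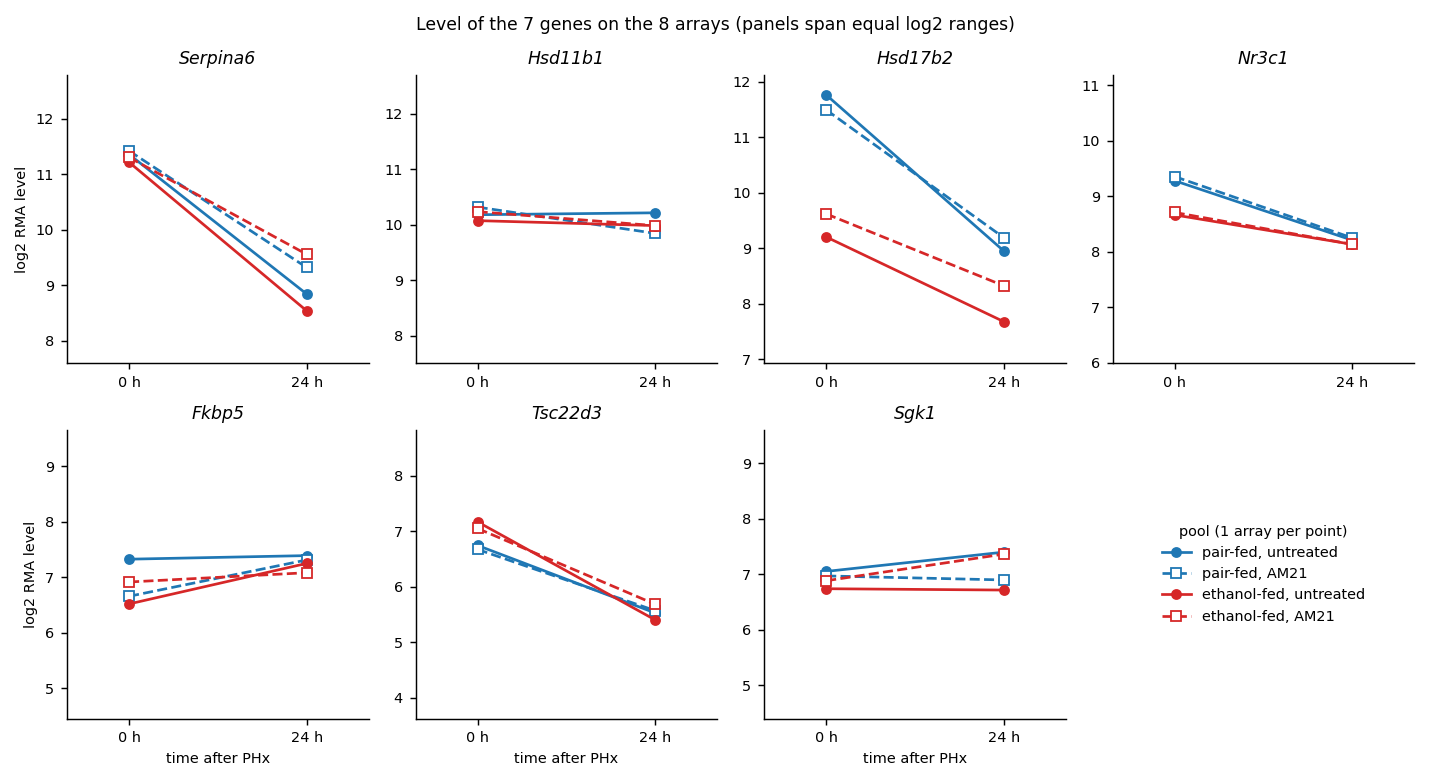
Log2 RMA level of each gene at 0 h and 24 h after PHx, 1 point per array, with a line joining the 2 arrays of a pool. Every panel spans the same number of log2 units. The 4 lines of Serpina6, Hsd17b2, Nr3c1 and Tsc22d3 all go down, while those of Hsd11b1 and Sgk1 stay within 0.48 of their 0 h level.

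Serpina6, the carrier, was far lower at 24 h in every pool. Its level at 0 h was 11.36 in untreated and 11.42 in AM21 livers of pair-fed rats, and 11.21 in untreated and 11.30 in AM21 livers of ethanol-fed rats. At 24 h it was 8.84, 9.32, 8.54 and 9.56 in the same order. The 0 h levels were nearly equal (mean 11.32 ± 0.09, SD, n = 4 arrays) and the 24 h levels were lower and more spread out (9.07 ± 0.46). They did not overlap, as in 13.7% of all tested genes in that direction. The mean difference was -2.26, which is a 4.78-fold lower level at 24 h. The spread at 24 h followed treatment: the AM21 pool of each diet had the higher level. The pool differences were -2.51 and -2.67 in the untreated pools and -2.10 and -1.74 in the AM21 pools. The difference between these responses was 0.67, and it is given without a test because the pool falls it compares chose the gene. Over its 11 alternatives this difference ran from 0.49 to 0.85. The diets differed little in Serpina6, by -0.14 and -0.12 at 0 h and by -0.30 and 0.24 at 24 h.

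The relatives of Serpina6 and other plasma carriers made by hepatocytes were measured beside it. Of 17 genes listed as clade A serpins and plasma carriers, 12 were tested, and 3 fell and 1 rose after PHx, with a list median of -0.03 beside 0.01 over all tested genes. That is 25% lower and 8.33% higher, beside 12.8% and 15.3% of all tested genes. Results of these data were known when the list was written, so its count is a description. Serpina3c fell by 1.03 on the log2 scale (-1.03 ± 0.10, adjusted p = 0.00166), from 11.63 ± 0.07 to 10.60 ± 0.17 (SD, n = 4 arrays each). Serpina4, which encodes the kallikrein inhibitor kallistatin, changed by -0.49 ± 0.08 and Serpina3m by -0.45 ± 0.13. The call of Serpina3m was lost in 5 of 11 alternatives: without the level filter, after quantile normalization, and without the pair-fed untreated, pair-fed AM21 or ethanol-fed AM21 pool (adjusted p from 0.0590 to 0.124). Serpina3n rose by 0.48 ± 0.09. The Serpina3 genes are related copies in rodents. Whether their probe sets cross-react was not tested, so the values of each are uncertain. Serpina1, alpha-1 antitrypsin, changed by 0.02 ± 0.08, and Serpina7, the thyroxine carrier, by 0.02 ± 0.20, and neither passed. The largest changes that did not pass were in Serpina11 (0.30), Serpina10 (0.28) and Rbp4, the retinol carrier (-0.16).

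Hsd11b1, which regenerates active glucocorticoid, kept a narrow range. Its level was 10.18, 10.32, 10.07 and 10.23 at 0 h and 10.21, 9.84, 9.98 and 9.98 at 24 h, in the order given for Serpina6. The groups overlap, and the PHx difference of -0.19 ± 0.11 did not pass (adjusted p = 0.221; 95% interval from -0.45 to 0.06). The diet difference was -0.07 ± 0.11 (interval from -0.31 to 0.18). H6pd, whose enzyme supplies NADPH to the Hsd11b1 product, changed by -0.31 ± 0.14 with PHx and did not pass. Hsd11b2, which encodes the enzyme of the opposite direction, fell (-0.90 ± 0.14, adjusted p = 0.00559). Its level was 5.45, 5.20, 5.87 and 5.52 at 0 h, and 4.45, 4.72, 4.57 and 4.71 at 24 h. Its 24 h levels lie under the level minimum, where signal above background is not established, and the size of the fall is uncertain.

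Hsd17b2, the sex steroid oxidase, was lower both after PHx and in ethanol-fed livers. Pair-fed livers had 11.76 (untreated) and 11.49 (AM21) at 0 h, and 8.95 and 9.19 at 24 h. Ethanol-fed livers had 9.21 and 9.62 at 0 h, and 7.68 and 8.33 at 24 h. The 0 h and 24 h levels do not overlap over the 4 pools, as in 13.7% of all tested genes in that direction. The separation is slight, since the lowest 0 h level was 9.21 (ethanol-fed untreated) and the highest 24 h level was 9.19 (pair-fed AM21). At each time both ethanol-fed levels lie below both pair-fed levels. The mean PHx difference was -1.98, a 3.95-fold lower level, and the mean diet difference was -1.64, a 3.12-fold lower level. Before PHx the diet difference was -2.56 in the untreated and -1.87 in the AM21 pair, and at 24 h it was -1.27 and -0.87. The PHx difference was accordingly larger in pair-fed pools (-2.81 and -2.30) than in ethanol-fed pools (-1.52 and -1.29). The mean of these differences in response was 1.15, and it is given without a test because the same 8 values chose the gene.

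Other enzymes of steroid metabolism were measured alongside. Of 25 listed genes 20 were tested, and 6 fell and 2 rose after PHx, with a list median of -0.25 beside 0.01 over all tested genes. That is 30% lower and 10% higher, beside 12.8% and 15.3% of all tested genes. This list was written with results of these data known, so its count is a description. Hsd17b8 (-0.76 ± 0.09) and Hsd17b13 (-0.67 ± 0.10), relatives of Hsd17b2 that are better known for fatty acid synthesis and lipid droplets, fell. So did Hsd17b11, Hsd17b10 and Akr1c14, which were named after their values were seen, by 0.61, 0.53 and 0.29 on the log2 scale. Cyp3a9, a steroid-hydroxylating P450, rose by 0.93 ± 0.24, and Hsd17b6, also named afterwards, by 0.36. Without the level filter, or without the pair-fed AM21 or the ethanol-fed untreated pool, neither of these rises passed and the count of rises was 0. The rise of Hsd17b6 was also lost without either of the other pools and with arrays centred on their medians, 6 of 11 alternatives in all. Cyp3a2 (-0.62), Cyp3a23-3a1 (-0.50) and Sult2a1 (-0.36) were the largest changes that did not pass. With the diet, limma called 0 of the 20 enzymes, with 9 at an unadjusted p under 0.05, and the list median was 0.21 beside 0.01 over all tested genes.

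Nr3c1, the receptor, fell after PHx in all 4 pools. At 0 h its level was 9.28 (untreated) and 9.36 (AM21) in pair-fed rats, and 8.67 and 8.71 in ethanol-fed rats. At 24 h the pair-fed levels were 8.21 and 8.25, and the ethanol-fed levels were both 8.14. The 4 arrays of 24 h lie within a narrow band below all those of 0 h (8.18 ± 0.06 against 9.0 ± 0.37, SD, n = 4 arrays each). The fitted fall was -0.82 ± 0.13 (adjusted p = 0.00606), a 1.76-fold lower level. It passed under all 11 alternatives, with values from -0.92 to -0.72. The spread at 0 h followed the diet: ethanol-fed differed from pair-fed livers by -0.62 and -0.65 before PHx and by -0.07 and -0.11 at 24 h. Averaged over time the diet difference was -0.36 ± 0.12 and did not pass (adjusted p = 0.222). It did not pass at 0 h alone either (-0.63, adjusted p = 0.118). It passed with the pool as a random block at the estimated negative correlation (adjusted p = 0.0452). The adjusted p ran from 0.0452 to 0.765 over the 19 alternatives. The difference between the diets in the PHx response, 0.54 ± 0.20, did not pass (adjusted p = 0.352).

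The partners of the receptor were counted next. Of 23 listed chaperones and coregulators 19 were tested, and 2 fell and 1 rose after PHx, with a list median of 0.13 beside 0.01 over all tested genes. That is 10.5% lower and 5.26% higher, beside 12.8% and 15.3% of all tested genes, so the share of falls is near the background. As with the other lists, results of these data were known when it was written. The coactivator genes Ncoa2 (-0.43 ± 0.10, adjusted p = 0.0247) and Ncoa1 (-0.41 ± 0.09, adjusted p = 0.0194) fell, and Smarca4, the motor of a chromatin remodelling complex, rose by 0.51 ± 0.09 (adjusted p = 0.0101). Both falls were lost without the level filter, and without any one of the pair-fed untreated, pair-fed AM21 or ethanol-fed untreated pools, and in each case the count of falls was 0. Fkbp4, the immunophilin that competes with the Fkbp5 product for the receptor complex, changed by 0.34 ± 0.24, and its level was lowest by far in the pair-fed untreated 0 h array (8.15, the others from 9.20 to 9.65). Stip1 (0.32) and Ppid (0.28), co-chaperones of heat shock protein complexes, did not pass. With the diet, limma called 0 of the 19, and 0 had an unadjusted p under 0.05.

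The 3 classic responders did not move together. Tsc22d3 fell in every pool, from 6.75, 6.67, 7.17 and 7.05 at 0 h to 5.53, 5.57, 5.41 and 5.69 at 24 h (pair-fed before ethanol-fed, and within each diet untreated before AM21). No 24 h level reached the lowest of 0 h. The fall was -1.36 ± 0.12 (adjusted p = 0.00163), a 2.57-fold lower level. It passed under all 11 alternatives, with values from -1.45 to -1.23. Some genes of the lists for lymphocytes (2 of 3 tested), sinusoidal endothelial cells (3 of 5), stellate cells (3 of 6) and macrophages (3 of 8) fell over the same interval. Of all tested genes 12.8% fell. The macrophage marker Marco (1.06), the stellate marker Pdgfrb (0.53) and the neutrophil markers S100a8 and S100a9 rose. The neutrophil markers Csf3r, Cd177 and Itgam were below the level minimum and not tested. The part of these cells in the fall of Tsc22d3 was not tested. Before PHx both ethanol-fed levels were above both pair-fed levels, by 0.42 and 0.38, and at 24 h the pairs differed by -0.12 and 0.12. The diet difference of 0.20 ± 0.12 did not pass (adjusted p = 0.472).

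Fkbp5 did not follow Tsc22d3. Its level was 7.32, 6.66, 6.52 and 6.91 at 0 h and 7.39, 7.31, 7.25 and 7.08 at 24 h, in the same order. The 24 h arrays were close together and the 0 h arrays spread more widely, with an overlap through the pair-fed untreated pool. The change was positive in all 4 pools (0.06, 0.65, 0.73 and 0.17), with a mean of 0.40 ± 0.14 that did not pass (adjusted p = 0.0713; 95% interval from 0.08 to 0.73). Over its 11 alternatives the adjusted p ran from 0.0577 to 0.226. The diet pairs went both ways at 0 h (-0.81 and 0.26), and the diet difference of -0.23 ± 0.15 did not pass.

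Sgk1 had no shared direction. Its level was 7.05, 6.97, 6.74 and 6.88 at 0 h and 7.40, 6.89, 6.71 and 7.36 at 24 h. The changes were 0.35, -0.07, -0.02 and 0.48, so 2 pools went up and 2 hardly moved. The mean of 0.18 ± 0.12 did not pass (adjusted p = 0.301; interval from -0.11 to 0.47). The diet difference was -0.15 ± 0.17 (interval from -0.54 to 0.23). Of the 5 genes tested for PHx, 2 fell (Nr3c1 and Tsc22d3), beside 12.8% of all tested genes. These genes were taken for their roles but with results of the data known, so the count is a description. The same 2 had 24 h levels wholly below those of 0 h, beside 13.7% of all tested genes. None of the 5 passed with the diet in limma, where Nr3c1 had the lowest unadjusted p (0.0176).

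**Figure D2:**
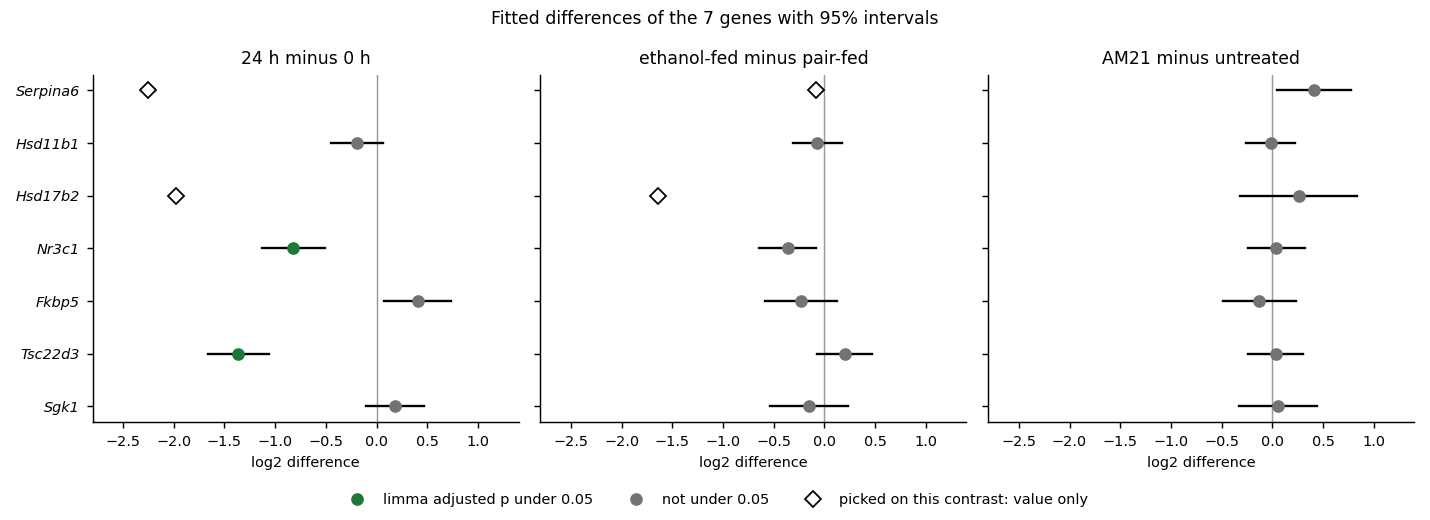
Fitted log2 differences of the 7 genes for PHx (24 h minus 0 h), diet (ethanol-fed minus pair-fed) and AM21 (AM21 minus untreated). Lines are 95% intervals from limma, and open diamonds are values with no test, of genes picked on that contrast. The intervals of Nr3c1 (-1.13 to -0.51) and Tsc22d3 (-1.66 to -1.06) lie well below 0 in the first panel.

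The wider set of genes that glucocorticoids are known to induce in liver held more falls than rises after PHx. Of 40 listed genes 34 were tested, and 13 fell and 1 rose, which is 38.2% lower beside 12.8% of all tested genes. The list median was -0.25, and 13 genes were lower in all 4 pools and 3 higher, beside 1977 and 2279 of all 8690 tested genes. The list was written with results of these data known, and the falls of Lpin1, Dusp1 and Sds were among those results, so its count is not independent evidence. Lpin1, a phosphatidate phosphatase and regulator of fat burning, fell by 2.09 on the log2 scale (-2.09 ± 0.29). Dusp1, the phosphatase that ends MAP kinase signalling, had levels of 8.53, 8.49, 8.24 and 8.53 at 0 h and 6.84, 6.24, 6.71 and 6.34 at 24 h (pair-fed before ethanol-fed, and within each diet untreated before AM21). Its fall of -1.92 ± 0.14 (adjusted p = 0.00125) had no overlap between times, as in 13.7% of all tested genes in that direction. Sds, a serine-breaking enzyme of gluconeogenesis, fell by 1.60 (-1.60 ± 0.32), and Zbtb16, a zinc finger repressor, by 0.86 (-0.86 ± 0.25, adjusted p = 0.0442). Among the genes named whatever they did, the clock gene Per1 fell (-0.70 ± 0.14, adjusted p = 0.0123), as did the transcription factor gene Klf9 (-0.70 ± 0.20, adjusted p = 0.0436).

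Other hormone-dependent genes of the same list did not pass. Tat, tyrosine aminotransferase and the model gene of glucocorticoid induction in liver, changed by -0.07 ± 0.10 (adjusted p = 0.623). Mt1, a metallothionein, changed by 0.29 ± 0.17, and Igfbp1, which binds insulin-like growth factors and is induced in fasting, by 0.38 ± 0.42. The largest changes that did not pass were in Mt2A (0.58, adjusted p = 0.0914), Gadd45g (-0.57) and Nfkbia (-0.49). Orm1, an acute phase protein gene that glucocorticoid and cytokines induce jointly, was the 1 gene that rose (0.84 ± 0.12, adjusted p = 0.00415), and was named after its value was seen. The count of falls was 7 without the ethanol-fed untreated pool and 8 without the ethanol-fed AM21 pool. Klf9 no longer passed without the pair-fed untreated (-0.44), pair-fed AM21 (-0.80) or ethanol-fed untreated (-0.69) pool. The fall of Zbtb16 was lost without the pair-fed untreated (-0.66), ethanol-fed untreated (-0.72) or ethanol-fed AM21 (-0.87) pool, and neither Klf9 (adjusted p = 0.0764) nor Zbtb16 (adjusted p = 0.0740) passed without the level filter. The fall of Sds was lost without the pair-fed AM21 pool (-1.51, adjusted p = 0.0549).

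**Figure D3:**
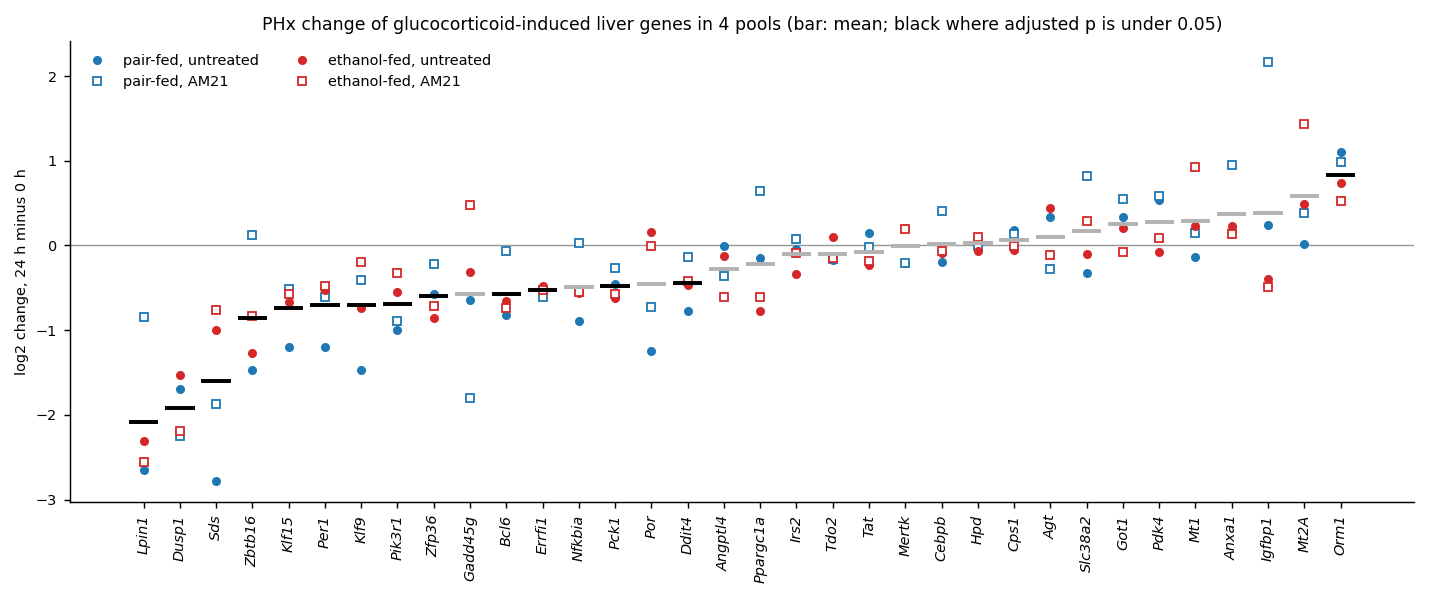
Log2 change from 0 h to 24 h of the 34 tested glucocorticoid-induced liver genes, 1 point per pool, ordered by mean change (bars, black where the limma adjusted p is under 0.05). Lpin1, Dusp1 and Sds are lowest at -2.09, -1.92 and -1.60, Tat sits at -0.07, and Orm1 is highest at 0.84.

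With the diet, 1 of the 34 induced genes passed, beside 0.38% of all tested genes called higher. It was Angptl4, a lipase inhibitor induced by fasting signals, whose pair-fed levels were 7.40, 7.85, 7.40 and 7.49 and whose ethanol-fed levels were 8.47, 8.80, 8.34 and 8.19 (untreated 0 h, AM21 0 h, untreated 24 h and AM21 24 h). The 2 diets do not overlap, as in 3.48% of all tested genes in that direction, and the difference was 0.91 ± 0.12 (adjusted p = 0.0261). It was lost when any single array but the ethanol-fed AM21 24 h array was left out, with values from 0.82 to 0.96. The call was also lost without the level filter (adjusted p = 0.0608) and on the 24 h arrays alone (0.82, adjusted p = 0.135). Igfbp1 was 8.66 and 6.76 in pair-fed against 10.22 and 9.97 in ethanol-fed livers at 0 h, and 8.90 and 8.93 against 9.81 and 9.48 at 24 h. Its diet difference of 1.56 ± 0.41 did not pass (adjusted p = 0.141), though at 0 h alone it did (2.38, adjusted p = 0.0239), and the adjusted p ran from 0.00728 to 0.361 over 19 alternatives. Of the 12 carriers limma called 0 with the diet, and 0 had an unadjusted p under 0.05.

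**Figure D4:**
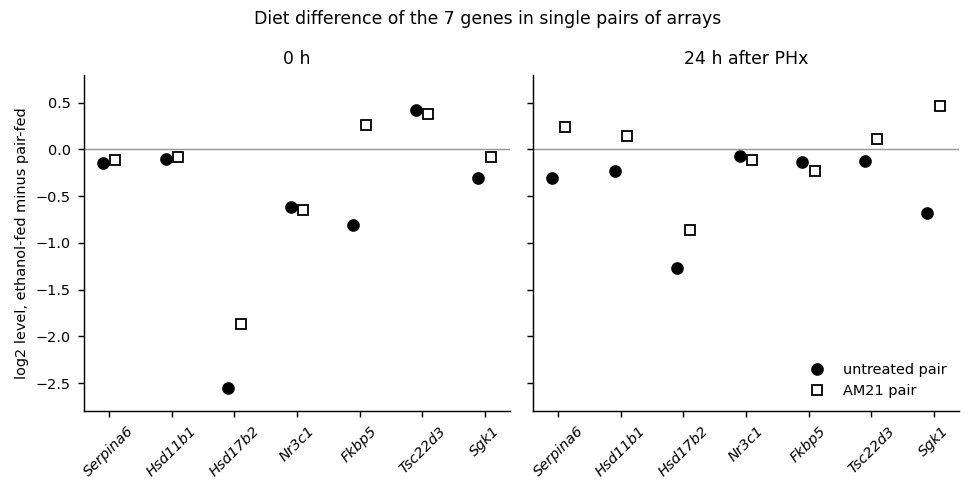
Log2 level in ethanol-fed minus pair-fed livers for each gene, in the untreated pair and the AM21 pair of arrays at 0 h (left) and 24 h (right). Hsd17b2 and Nr3c1 lie below 0 in both pairs at 0 h (-2.56 and -1.87, and -0.62 and -0.65) and nearer to 0 at 24 h.

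The diets were then compared in their response to PHx. Serpina6 and Hsd17b2 have no test here either, and none of the other 5 genes passed, beside 0.529% of all tested genes called in either direction. The responses of Serpina6 differed by 0.10. Those of Hsd11b1 (0.05 ± 0.21), Fkbp5 (0.09 ± 0.28) and Sgk1 (0.09 ± 0.26) differed by less than their errors. For Tsc22d3 the pair-fed changes were -1.22 and -1.10, the ethanol-fed changes were -1.76 and -1.36, and they gave a difference of -0.41 ± 0.20 that did not pass (adjusted p = 0.546). Among the listed genes 2 passed. Hsd17b7, which acts in cholesterol synthesis as well as on estrone, went up in the pair-fed pools (1.09 and 0.88) and down in the ethanol-fed pools (-0.76 and -0.52), a difference of -1.62 ± 0.21 (adjusted p = 0.0194), in the direction of 0.46% of all tested genes. Sds changed more in pair-fed pools (-2.78 and -1.87) than in the ethanol-fed ones (-0.99 and -0.76), a difference of 1.45 ± 0.23 (adjusted p = 0.0472), in the direction of 0.069% of all tested genes. The pair-fed untreated 24 h level of Sds was 4.24, under the level minimum. Neither call held without the level filter, after quantile normalization or with this interaction alone in the fit. That of Sds was also lost with a level minimum of 6 (limma adjusted p = 0.11) and with arrays centred on their medians (limma adjusted p = 0.056). With this interaction alone and the pair-fed untreated, ethanol-fed untreated or ethanol-fed AM21 pool left out, neither passed.

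The question of AM21 was what inhibition of miR-21 changed in these livers. For the 7 genes no difference passed, and over all tested genes limma called 0, with 6.19% at an unadjusted p under 0.05. The fit counted all arrays as independent, although the 0 h and 24 h arrays of a pool came from the same rats. AM21 also cannot be told apart from cohort, and the spread between single animals was not measured. The intervals therefore describe that fit only and do not bound an effect of AM21. They ran from -0.24 to 0.32 for Nr3c1, from -0.24 to 0.30 for Tsc22d3, from -0.26 to 0.23 for Hsd11b1, from -0.49 to 0.23 for Fkbp5 and from -0.33 to 0.44 for Sgk1. The interval of Hsd17b2 was wider, from -0.32 to 0.83. Serpina6 had the largest difference, 0.41 ± 0.16 (adjusted p = 0.778), and was higher with AM21 in 4 of 4 pairs. Those pairs differed by 0.06 (pair-fed) and 0.09 (ethanol-fed) at 0 h and by 0.48 and 1.02 at 24 h. For AM21 in the response to PHx, Serpina6 and Hsd17b2 have no test, and none of the remaining genes passed. Of all tested genes limma called 0%, with 6.95% at an unadjusted p under 0.05. Fkbp5 and Sgk1 differed by 0.01 ± 0.28 and 0.04 ± 0.26.

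The genes most like each of the 7 over the 8 arrays were found by Pearson correlation among the 8690 tested genes. The arrays share time, diet and pool, so these values are a description. Serpina6 was closest to Serpina3c (r = 0.990), the peroxisomal membrane protein gene Pxmp2 (0.989) and Igfals (0.987), which encodes the subunit that keeps insulin-like growth factors in plasma. Tsc22d3 was closest to the thiamine transporter gene Slc19a2 (0.990), the choline breakdown gene Dmgdh (0.990) and Fabp1 (0.988), the liver fatty acid binding protein. Nr3c1 was closest to Stac3 (0.989), Slc13a4 (0.983) and Nfia (0.982), and Hsd17b2 to Chd3 (0.976), Pals1 (0.9745) and Ppp2r5e (0.9745). Fkbp5 was closest to Rpl22l1 (0.973), Pabpc4 (0.970) and Tor1b (0.960). Hsd11b1 had Nfxl1 (0.942), Fbxw4 (0.929) and Abl1 (0.929), and Sgk1 had Zfp593 (0.885), Pdcd2l (0.880) and Cpsf7 (0.879).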

How the data were processed

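Per the submitters' processing notes, the authors made the deposited log2 values by RMA in Expression Console, a program of Affymetrix. No version of either is recorded in the labels. RMA scales the arrays to one another, which removes any change common to most genes. Values ran from 0.481 to 13.3, and each array had a median between 4.11 and 4.23. Precision is limited by the number of arrays and pools. The platform table names 1 gene for 18511 of 36685 probe sets, several for 575 and none for 17599. By gene identifier 18394 were found in the GRCr8 RefSeq table. The brightest probe set stood for each of the 291 genes with more than 1.

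The limma package (3.58.1, R 4.3.3) was used with lmFit and eBayes after a test on simulated data. For PHx the pool was a fixed block (3 residual degrees of freedom), since animal identifiers pair the arrays. Diet and AM21 were fitted with time in 1 additive model that treats 8 arrays as independent (4 residual degrees of freedom), and the interactions with the pool as a block (1). The interaction of PHx with diet is given without a test for Serpina6 and Hsd17b2. Members and lists were chosen with earlier results of these data known. Each list's members past the threshold were named up to 4, those that did not pass up to 3, both by size of change, with 10 genes named whatever they did. Likeness took the 3 highest correlations, passing over uncharacterised symbols. Alternatives changed the level filter, probe set rule, scaling, prior, block and samples.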

Additional observations from a re-analysis of the deposited data

Results flagged for a closer look

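Fkbp5 had 1 array far from the others in each of 2 groups of 4. The pair-fed AM21 array at 0 h was at 6.66, the lowest of the 4 pair-fed arrays. The ethanol-fed untreated array at 0 h was at 6.52, the lowest of the 4 untreated arrays. In all 49 groups of 4 arrays were examined, with arrays shared between groups, and chance alone gives such a gap in about 1 of 20 groups.

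The diets differed in the PHx response of the steroid enzyme gene Hsd17b7, by -1.62 on the log2 scale, with both pair-fed pools going up and both ethanol-fed pools going down. They also differed in that of the gluconeogenic gene Sds, by 1.45, where all 4 pools went down. Both calls rest on a fit with 1 residual degree of freedom. Neither held without the level filter, after quantile normalization or with the interaction of PHx and diet alone in the fit. The pair-fed untreated 24 h level of Sds, 4.24, was under the level minimum.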

How the results depend on the processing

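Of 497 alternative values of the 7 genes, 457 kept their direction and, where a threshold was applied, their side of it. Another 3 came to pass the threshold and 37 changed sign. Among those 3, the diet difference in the PHx response of Hsd17b2 and the AM21 difference in that of Serpina6 are no tests, since the same values chose the genes. The PHx and diet values of Serpina6 and Hsd17b2 had no threshold. They counted as kept where the direction held and the value moved by less than the SD between pools or pairs. The PHx calls of Nr3c1 and Tsc22d3 held under all 11 alternatives. The count of PHx calls (2443) ran from 1466 to 1705 when a pool was left out. The diet count (40) was 11 without the level filter, 88 with an intensity trend, 661 with the pool as a random replicate block, 102 on 4 pool means, 101 at 0 h alone, 0 at 24 h alone (1248 at an unadjusted p under 0.05) and 285 with all pairwise interactions. It ran from 0 to 18 when an array was left out. The AM21 count (0) was 1 with the pool as a random replicate block and 8 with all pairwise interactions. The count of differences between the diets in the PHx response (46) was 0 without the level filter, 16 with a level minimum of 6, 0 after quantile normalization, 226 with an intensity trend and 0 with that interaction alone and the replicate block (1371, 975 and 827 at an unadjusted p under 0.05 where it was 0). With that interaction alone and a pool left out, an alternative chosen after seeing the data, it ran from 0 to 51. The AM21 counterpart (0) was 51 with an intensity trend. Why these counts moved was not tested.

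Most changes of sign were in values near 0, but the AM21 difference in the PHx response of Hsd17b2 (0.37) and the PHx change of Igfbp1 (0.38) also changed sign, each when a pool was left out. None of the values that changed sign had passed the threshold. The AM21 difference of Hsd11b1 was 0.014 with centred arrays and 0.15 at 0 h alone, and that of Tsc22d3 was -0.10 at 0 h alone. The diet difference of Tsc22d3 was -0.0047 at 24 h alone. For Nr3c1 the AM21 difference in the PHx response was 0.046 after quantile normalization. With centred arrays the PHx change was -0.039 in Serpina1 and -0.033 in Serpina7, which was at -0.044 after quantile normalization. When an array was left out, the diet difference ran from -0.25 to 0.058 in Serpina6 and from -0.16 to 0.012 in Hsd11b1. The AM21 difference ran from -0.069 to 0.076 in Hsd11b1, from -0.035 to 0.12 in Nr3c1, from -0.27 to 0.016 in Fkbp5, from -0.079 to 0.12 in Tsc22d3 and from -0.11 to 0.20 in Sgk1. When a pool was left out, the difference between the diets in the PHx response ran from -0.37 to 0.56 in Serpina6, from -0.20 to 0.30 in Hsd11b1, from -0.21 to 0.38 in Fkbp5 and from -0.16 to 0.34 in Sgk1. The AM21 counterpart ran from -0.27 to 1.01 in Hsd17b2, from -0.31 to 0.23 in Nr3c1, from -0.32 to 0.35 in Fkbp5, from -0.018 to 0.53 in Tsc22d3 and from -0.23 to 0.32 in Sgk1. The PHx change ran from -0.22 to 0.67 in Igfbp1, from -0.0075 to 0.036 in Serpina1 and from -0.24 to 0.17 in Serpina7. With 4 pools and no single animals, small differences could not be resolved.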
